A study of Mus musculus with 48 samples.

Results

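Cisplatin was set against PBS in the libraries labelled medullary sinus macrophage (MSM) from lymph nodes labelled LN, with 3 libraries each, which are 6 of the 48 libraries of the series. They were chosen by the labels for cell type, node and treatment, without use of any measured value. Both groups were wild type, and the labels give neither strain, age, dose nor the time after treatment. Sorted myeloid cells of digested nodes were sequenced as polyA RNA, and the series design text describes tumor-bearing mice that received cisplatin or PLX4720. The other libraries came from subcapsular sinus macrophages (SSM), from dendritic cells and from tumor-draining nodes (TDLN). What tissue an LN node drained is not stated. Neither is it stated that replicates are different animals, so p-values may measure only technical spread.

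Macrophages of the lymph node sinuses sit in the path of the lymph and take up particles, microbes and dying cells. They are known for the sialic acid binding lectin Siglec1, and those of the medulla also for the F4/80 gene Adgre1, the scavenger receptor gene Marco and the C-type lectin gene Cd209b. Their survival depends on CSF1 receptor signals and on factors from the surrounding lymphoid tissue. Cisplatin is a platinum compound that crosslinks DNA, and cells remove such adducts by excision repair and the Fanconi anaemia pathway while p53 induces genes of cell cycle arrest and death. IL-33, named in the study's title, is an alarmin of injured tissue, and Il1rl1 encodes its receptor subunit ST2.

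The markers went against the label in the cisplatin libraries, which are therefore called by their label only. Adgre1 (ENSMUSG00000004730, GRCm38 chromosome 17, 57358691 to 57483527, plus strand) stood at 3.65, 3.99 and 3.49 CPM (counts scaled to library size) in cisplatin 1, 2 and 3, against 549.6, 197 and 551 CPM in PBS 1, 2 and 3. Siglec1 was at 0.292, 0 and 0 CPM, against 20.1, 356 and 15.9 CPM in the PBS libraries. The uptake receptor gene Mertk had 0.146, 0 and 0 CPM, against 1.86, 36.5 and 2.87 CPM, and the Fc receptor gene Fcgr1 0.292, 0 and 0 CPM, against 18.3, 69.6 and 19.96 CPM. Adgre1, Siglec1, Mertk and Fcgr1 were thus lower in every cisplatin library than in any PBS library. Mertk was also low in PBS 1 and 3, with 37 counts together. Marco was at 1.900, 1.12 and 0.624 CPM in the cisplatin libraries, against 0.6196, 1392 and 1.04 CPM in PBS 1, 2 and 3, and Cd209b at 25.9, 23.9 and 24.2 CPM, against 3.97, 7422 and 5.61 CPM. Both were high in PBS 2 alone, and Vsig4, a complement receptor gene of resident macrophages, was at 0 counts in all 6 libraries. The summed list of 17 sinus macrophage genes came to 315, 325 and 306 CPM in the cisplatin libraries, against 440.1, 13957 and 435 CPM in PBS 1, 2 and 3. PBS 1 and 3 were thus low in Siglec1, Marco and Cd209b as well, and lower in Cd209b than the cisplatin libraries. Unlike the cisplatin libraries, PBS 1 and 3 held Adgre1 at a high level.

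The cisplatin libraries held 6.46 to 7.61 M counts over 18726 to 19114 genes with a count, and the PBS libraries 7.78 to 9.55 M over 22950 to 24994 genes. Spearman's rho over the 7818 genes above 4 in mean log2 CPM was at least 0.9901 among the cisplatin libraries and 0.9904 between PBS 1 and 3. PBS 2 stood apart, with 0.747 to 0.751 to PBS 1 and 3 and 0.989 to 0.993 to replicates 1 and 3 of SSM LN PBS. SSM LN PBS 2 in turn reached 0.991 to 0.992 with PBS 1 and 3. The cisplatin libraries correlated at 0.707 to 0.714 with PBS 1 and 3, at 0.737 to 0.743 with PBS 2 and at 0.683 to 0.693 with SSM LN cisplatin. Their highest rho with a macrophage library of any other group was 0.755. In the TDLN, MSM cisplatin 1 stood apart as well, with 0.685 to 0.695 to MSM cisplatin 2 and 3 and 0.9903 to 0.992 to SSM cisplatin 1 and 2, and SSM cisplatin 3 reached 0.988 to 0.992 with MSM cisplatin 2 and 3. Results are therefore given with all 3 PBS libraries and without PBS 2, and with 10 MSM libraries, without PBS 2 and TDLN cisplatin 1, where calls depend on it.

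**Figure D1:**
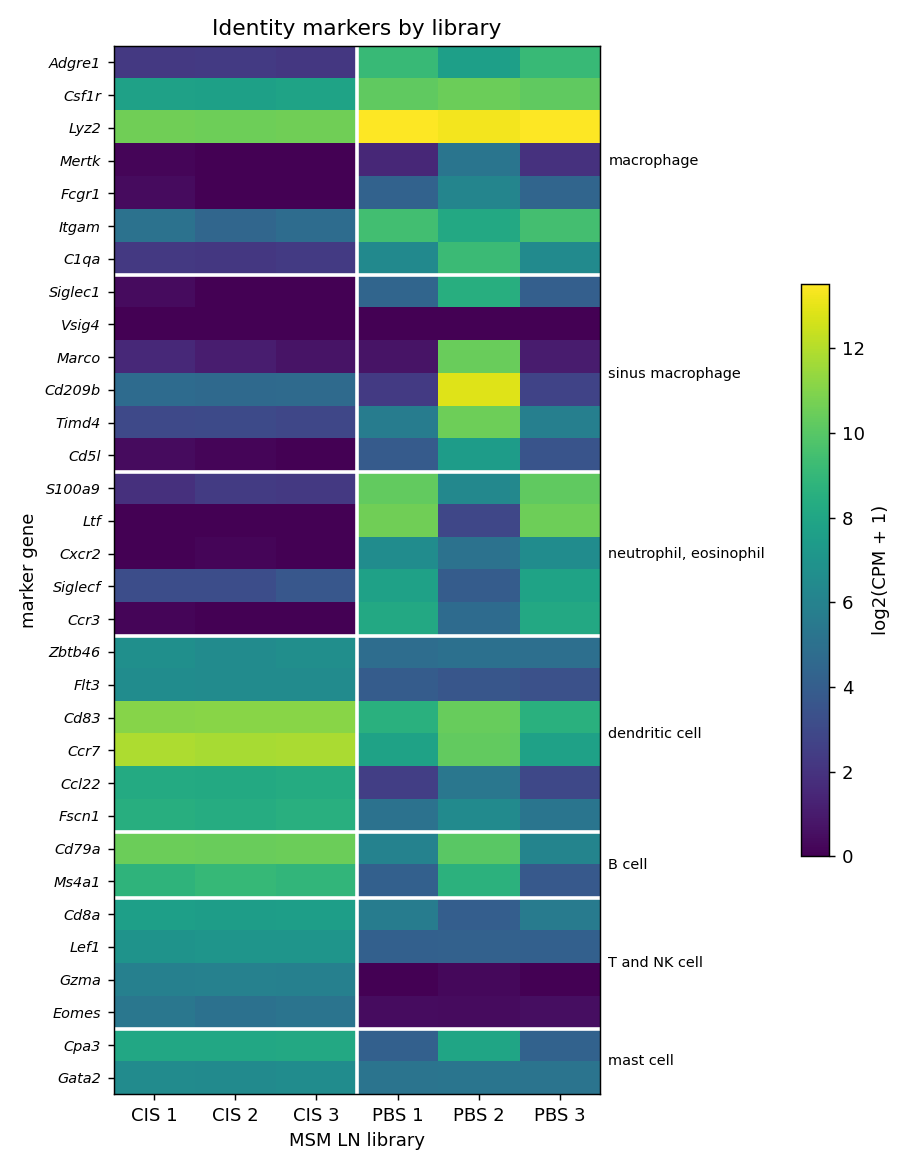
Level of marker genes (rows, grouped by the cell type they mark) in the 3 cisplatin and the 3 PBS libraries (columns), as log2(CPM + 1) in colour. The Adgre1, Mertk, Fcgr1, Siglec1 and granulocyte rows are dark in the cisplatin libraries. Lyz2 and Csf1r are lower there than in the PBS libraries, but Lyz2 is still bright and Csf1r intermediate. The Ccr7, Cd83 and B cell rows are bright there, and Marco and Cd209b are bright in PBS 2 alone.

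Of 17002 genes tested, 2819 were called higher with cisplatin (16.6%) and 4557 lower (26.8%) at an adjusted p under 0.05 (edgeR, quasi-likelihood, adjusted by Benjamini-Hochberg over all genes). Without PBS 2, 3982 of 18606 genes were higher (21.4%) and 5457 lower (29.3%). Of the 7376 calls with all libraries, 6740 had the same direction without PBS 2 and 0 the opposite. TDLN cisplatin 1 also enters these fits, and without it and PBS 2 the calls numbered 13602 of 18374 genes, 6128 higher and 7474 lower. A call with those 10 libraries was thus the usual outcome for a gene tested. At least 2-fold and called in both fits were 1712 genes higher (10.1%) and 3303 lower (19.4%). The median log2 fold change over all genes tested was -0.13 with all libraries and -0.07 without PBS 2. Among the tested genes 1817 had 0 counts in all 3 cisplatin libraries and 369 had 0 counts in all 3 PBS libraries. With 0 counts in one group and above 10 CPM in every library of the other, 47 genes were absent from the cisplatin libraries and 3 from the PBS libraries. Brackets after a gene give its log2 fold change, cisplatin over PBS, ± standard error with all libraries, and "at least" sets a group at 0 to 3 counts per library, which covers counting error only. In bulk RNA fewer cells of a type and less RNA per cell cannot be told apart, and a change of treatment and a change of the cells sorted cannot be told apart here either.

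**Figure D2:**
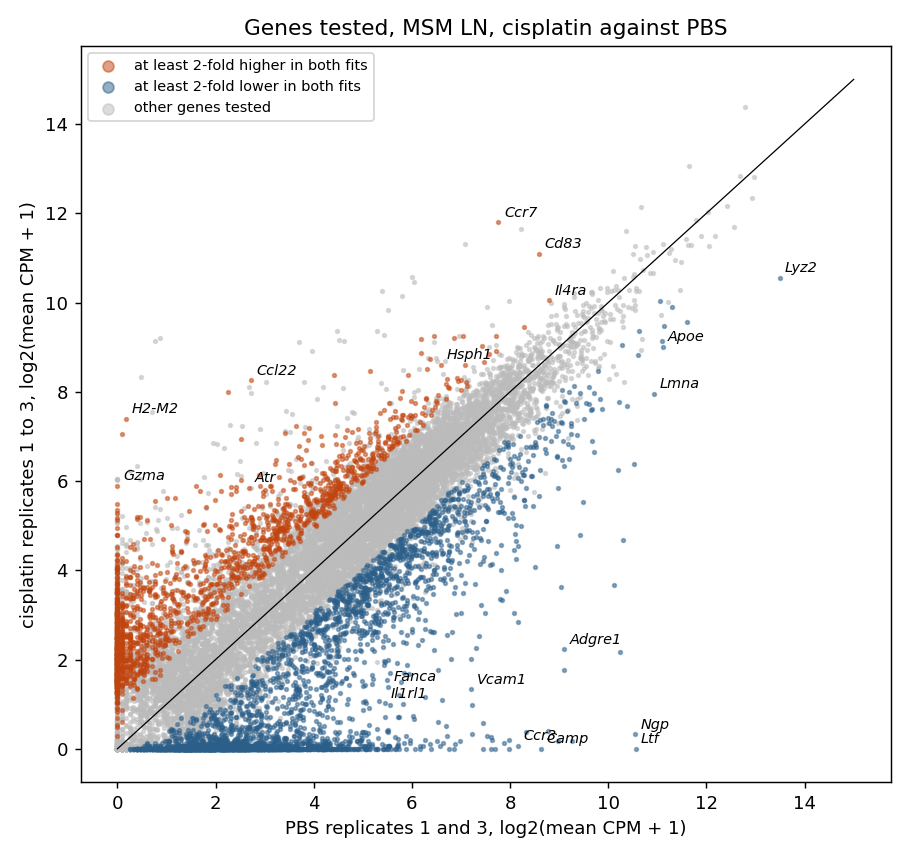
Mean level of each gene tested in the cisplatin libraries (vertical) against PBS replicates 1 and 3 (horizontal), both as log2(mean CPM + 1), with the line of equal level. Red genes (1712) and blue genes (3303) differed at least 2-fold in both fits, and many blue genes lie on the floor of the cisplatin axis.

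The promoters of 4 genes are shown because those genes had among the largest differences and 3 of them mark the granulocyte and macrophage part of the signal. They run from 250 bases before to 50 after the start (RefSeq, GRCm38), 5′ to 3′ on the gene's strand. Capitals mark matches on either strand to AGGAAGT (PU.1, the transcription factor of myeloid cells encoded by Spi1), to TTGCNNAA (C/EBP factors, which drive granule genes) or to the NF-kB consensus.
H2-M2 (chr17:37483505-37483804, minus strand): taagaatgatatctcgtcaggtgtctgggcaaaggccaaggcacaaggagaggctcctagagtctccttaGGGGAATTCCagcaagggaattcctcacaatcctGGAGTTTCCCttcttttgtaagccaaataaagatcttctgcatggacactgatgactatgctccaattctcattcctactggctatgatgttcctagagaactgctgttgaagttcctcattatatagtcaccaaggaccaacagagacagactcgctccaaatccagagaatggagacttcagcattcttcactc
Lyz2 (chr10:117282223-117282522, minus strand): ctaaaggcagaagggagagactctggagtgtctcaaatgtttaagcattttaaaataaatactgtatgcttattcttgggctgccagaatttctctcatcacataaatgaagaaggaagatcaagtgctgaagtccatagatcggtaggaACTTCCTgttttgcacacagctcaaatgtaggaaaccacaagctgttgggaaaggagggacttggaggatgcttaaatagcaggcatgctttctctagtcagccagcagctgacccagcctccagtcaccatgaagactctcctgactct
Ltf (chr9:111019042-111019341, plus strand): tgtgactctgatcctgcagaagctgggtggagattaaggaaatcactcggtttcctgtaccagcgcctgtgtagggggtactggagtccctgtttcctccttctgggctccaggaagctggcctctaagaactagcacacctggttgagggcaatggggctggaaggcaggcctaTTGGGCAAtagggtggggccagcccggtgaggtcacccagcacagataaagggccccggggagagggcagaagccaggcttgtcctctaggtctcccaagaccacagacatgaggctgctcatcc
Ngp (chr9:110419558-110419857, plus strand): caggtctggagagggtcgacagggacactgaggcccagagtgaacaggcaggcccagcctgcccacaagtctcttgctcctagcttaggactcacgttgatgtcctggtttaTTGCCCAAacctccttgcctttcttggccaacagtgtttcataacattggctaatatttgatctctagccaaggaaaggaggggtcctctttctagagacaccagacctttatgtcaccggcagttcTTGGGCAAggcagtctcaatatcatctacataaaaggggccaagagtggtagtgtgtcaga
The capitals are NF-kB matches in H2-M2, a PU.1 match in Lyz2 and C/EBP matches in Ltf and Ngp, and no match overlapped another. Of all 32851 promoters of this length, 9.35% held the PU.1 letters, 10.8% the C/EBP letters and 4.51% the NF-kB consensus. Counted by gene, 2886 of 27025 held the PU.1 letters, 3298 the C/EBP letters and 1388 the NF-kB consensus. Of the neutrophil list, 15 genes had a promoter, and 7 held the C/EBP letters, 5 the PU.1 letters and 0 the NF-kB consensus. Among 11 genes of the pan-macrophage list 5 held the PU.1 letters, 1 the C/EBP letters and 1 the NF-kB consensus. For 15 mature migratory dendritic cell genes these counts were 2, 0 and 2. A match is a description of these letters and not a binding site, and no test was made of these shares.

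Pan-macrophage genes were lower in the cisplatin libraries almost throughout. Of 17 members tested, 0 rose and 16 fell, and 0 and 12 did so at least 2-fold in both fits, with a median log2 fold change of -3.54 with all libraries and -2.74 without PBS 2. Their sum was 2594, 2469.6 and 2619 CPM in the cisplatin libraries, against 17845, 28008 and 17378 CPM in PBS 1, 2 and 3, so the groups did not overlap. The lysozyme gene Lyz2 (ENSMUSG00000069516, GRCm38 chromosome 10, 117277331 to 117282321, minus strand), whose promoter is shown above, had 1525, 1466 and 1531 CPM in the cisplatin libraries, against 11724, 9854 and 11310.5 CPM in PBS 1, 2 and 3. All cisplatin libraries lay far below all PBS libraries. For Lyz2 the log2 fold change was -2.86 ± 0.15 (adjusted p = 1.28e-06), and -2.93 without PBS 2 (adjusted p = 1.95e-06). Adgre1 fell likewise. In log2 terms Adgre1 changed by -6.86 ± 0.57 (adjusted p = 1.64e-05), and by -7.20 without PBS 2 (adjusted p = 5.33e-06). The gene of the CSF1 receptor Csf1r had 216, 205 and 229 CPM, against 1179.9, 1419.6 and 1203 CPM in the PBS libraries, and PBS 2 was the highest of the 6. Csf1r differed by -2.55 ± 0.35 on the log2 scale (adjusted p = 0.000366), and by -2.45 without PBS 2 (adjusted p = 0.000836). Maf, a transcription factor gene of tissue macrophages (-2.66 ± 0.21, adjusted p = 1.37e-05), the integrin gene Itgam (-4.37 ± 0.47, adjusted p = 6.85e-05) and the lipopolysaccharide co-receptor gene Cd14 (-2.45 ± 0.31, adjusted p = 0.000219) fell as well. The haemoglobin scavenger receptor gene Cd163, called with all libraries in neither direction, was at 2.19, 2.24 and 2.12 CPM, against 0.124, 3.697 and 0.652 CPM, and was called higher with the 10 libraries (2.47, adjusted p = 0.0014). Apoe, a lipid carrier made by macrophages, had 524, 489 and 535 CPM, against 2264, 9347 and 2159 CPM in the PBS libraries, where PBS 2 was the highest. For Apoe the log2 fold change was -3.15 ± 0.79 (adjusted p = 0.00911), and -2.09 without PBS 2 (adjusted p = 0.0252).

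Among sinus macrophage genes much of the difference rested on PBS 2. Of 15 members tested, 0 rose and 8 fell, and 0 and 3 did so at least 2-fold in both fits, and the median log2 fold change was -3.74 with all libraries and -1.002 without PBS 2. Siglec1 (1634-fold lower by summed counts, 95% interval 452 to 13494, 207-fold, 95% interval 56.7 to 1714, without PBS 2, adjusted p = 0.00291 with all libraries), the scavenger receptor gene Stab1 (-5.52 ± 0.76, adjusted p = 0.000333) and the iron exporter gene Slc40a1 (-2.12 ± 0.28, adjusted p = 0.000289) fell in both fits. Timd4, a receptor gene for apoptotic cells, stood at 6.87, 7.22 and 6.36 CPM, against 49.8, 1488 and 55.1 CPM, high in PBS 2. In log2 terms Timd4 changed by -6.28 ± 1.84 (adjusted p = 0.019), and by -2.93 without PBS 2 (adjusted p = 0.0913). That call was thus lost without PBS 2, and also without cisplatin 1, 2 or 3 (adjusted p = 0.0685, 0.0686 and 0.0701). Neither Marco nor Cd209b was called with all libraries (adjusted p = 0.0511 and 0.106), and without PBS 2 their log2 fold changes were 0.52 and 2.37 (adjusted p = 0.924 and 0.436), the second of which was called with the 10 libraries (2.37, adjusted p = 4.1e-09). Vcam1, an adhesion molecule gene of sinus macrophages and stroma, had 1.46, 1.74 and 1.37 CPM, against 149.8, 327 and 144 CPM, with every PBS library far above the cisplatin libraries. Vcam1 differed by -7.07 ± 0.75 on the log2 scale (adjusted p = 6.7e-05), and by -6.56 without PBS 2 (adjusted p = 0.000107).

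Monocyte genes were lower as well, as 0 of 11 rose and 7 fell (0 and 6 at least 2-fold in both fits), and the sum was 2935, 2732 and 2901 CPM in the cisplatin libraries, against 4495, 3351 and 4539 CPM in PBS 1, 2 and 3. Chil3, a lectin gene of alternatively activated and alveolar macrophages, had 0.585, 0.125 and 0.2495 CPM, against 449, 85.2 and 419 CPM in PBS 1, 2 and 3. It was near absent from the cisplatin libraries. For Chil3 the log2 fold change was -9.94 ± 1.22 (adjusted p = 0.000169), and -10.38 without PBS 2 (adjusted p = 8.53e-05). Cx3cr1, the fractalkine receptor gene of monocytes and macrophages, had 1.32, 0.996 and 1.12 CPM, against 99.8, 78.9 and 93.02 CPM, and here PBS 2 was close to PBS 1 and 3. In log2 terms Cx3cr1 changed by -6.29 ± 0.24 (adjusted p = 2.6e-07), and by -6.38 without PBS 2 (adjusted p = 4.16e-07). F13a1, a coagulation factor gene (-6.70 ± 1.40, -4.04 without PBS 2, adjusted p = 0.00379 with all libraries), and Ace, the angiotensin converting enzyme gene of patrolling monocytes (-2.42 ± 0.51, adjusted p = 0.00411), also fell.

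Neutrophil genes were near absent from the cisplatin libraries and abundant in PBS 1 and 3. All 14 members tested fell, 14 of them at least 2-fold in both fits, and the other 2 of the 16 were too low to test. With genes at 0 set to their bound, the median log2 fold change was -8.39 with all libraries and -8.86 without PBS 2. The list summed to 99.1, 97.3 and 100.7 CPM in the cisplatin libraries, against 7934, 459 and 7646 CPM in PBS 1, 2 and 3. PBS 2 thus lay between the cisplatin libraries and PBS 1 and 3. The lactoferrin gene Ltf (ENSMUSG00000032496, GRCm38 chromosome 9, 111019271 to 111042767, plus strand) was at 0 CPM in each library, against 1521, 6.31 and 1489 CPM, or at least 2543-fold lower (adjusted p = 0.00329). Ngp, a granule protein gene, had 0.146, 0.498 and 0.125 CPM, against 1523, 10.2 and 1477 CPM, again low in PBS 2 and lower with cisplatin (log2 fold change -11.83 ± 2.03, adjusted p = 0.00129). No cisplatin library held a count of Camp, an antimicrobial peptide gene (adjusted p = 0.00722), which was lower by at least 666-fold. Cd177, a neutrophil surface protein gene, was lower by at least 435-fold (adjusted p = 0.00104), and the lipolysis inhibitor gene G0s2 by at least 360.3-fold (adjusted p = 0.000219). The resistin-like gene Retnlg was lower by at least 313-fold (adjusted p = 0.000117). These 3 had 0 counts with cisplatin too, as did Padi4, whose product citrullinates histones in neutrophils (at least 207-fold lower, adjusted p = 0.000663). S100a9, a calcium-binding alarmin gene, had 2.63, 4.11 and 3.74 CPM, against 1230.4, 79.4 and 1199 CPM (log2 fold change -7.89 ± 1.14, adjusted p = 0.000461). The chemokine receptor gene Cxcr2 had 0, 0.125 and 0 CPM, against 94.2, 33.1 and 94.1 CPM. Cxcr2 was 1639-fold lower by summed counts (95% interval 294 to 64758, adjusted p = 1.01e-05), and 2154-fold with adjusted p = 2.74e-06 without PBS 2. Whether the missing granulocyte signal bears on other differences was not tested.

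Eosinophil genes were low with cisplatin too. Of the eosinophil list 0 of 6 rose and 4 fell (0 and 4 at least 2-fold in both fits), with sums of 23.1, 21.7 and 23.8 CPM in the cisplatin libraries, against 609.7, 77.1 and 637 CPM in PBS 1, 2 and 3. Ccr3, the eotaxin receptor gene, had 0.146, 0 and 0 CPM, against 283, 25.1 and 289 CPM, so the libraries of the groups did not overlap. Ccr3 was 4343-fold lower by summed counts (95% interval 779 to 171577, adjusted p = 0.000508), and 6546-fold with adjusted p = 0.000128 without PBS 2. The IL-5 receptor gene Il5ra (1233-fold lower by summed counts, 95% interval 221 to 48732, adjusted p = 5.38e-05) and the lectin gene Siglecf (-4.03 ± 1.01, adjusted p = 0.00935) fell too. Inpp5j, an inositol phosphatase gene (at least 359-fold lower, adjusted p = 0.00253), had no count with cisplatin, nor had the IL-17 receptor subunit gene Il17re (at least 211-fold lower, adjusted p = 0.000345). Lrg1, a glycoprotein gene, was also at 0 with cisplatin and lower by at least 175-fold (adjusted p = 3.77e-05), as was the glycerol channel gene Aqp9 by at least 126-fold (adjusted p = 0.00195). Among genes at least 2-fold lower in both fits without overlap, the largest falls in mean CPM without PBS 2 were in Lyz2, Dusp1, Lmna, Apoe, Fos, Psap, Ltf and Ngp. Among these the phosphatase gene Dusp1 (-1.73 ± 0.47, adjusted p = 0.0133), the immediate early gene Fos (-1.24 ± 0.32, adjusted p = 0.0108) and the saposin precursor gene Psap (-1.87 ± 0.23, adjusted p = 0.000189) are not on the neutrophil list. The lamin A gene Lmna fell by 2.502 on the log2 scale (adjusted p = 0.0152), and by 2.97 without PBS 2. Lmna had 253, 231 and 259 CPM, against 1981, 313 and 1915 CPM, with PBS 2 near the cisplatin libraries, and its call was lost without cisplatin 1, 2 or 3 (adjusted p = 0.0527, 0.0570 and 0.0519).

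**Figure D3:**
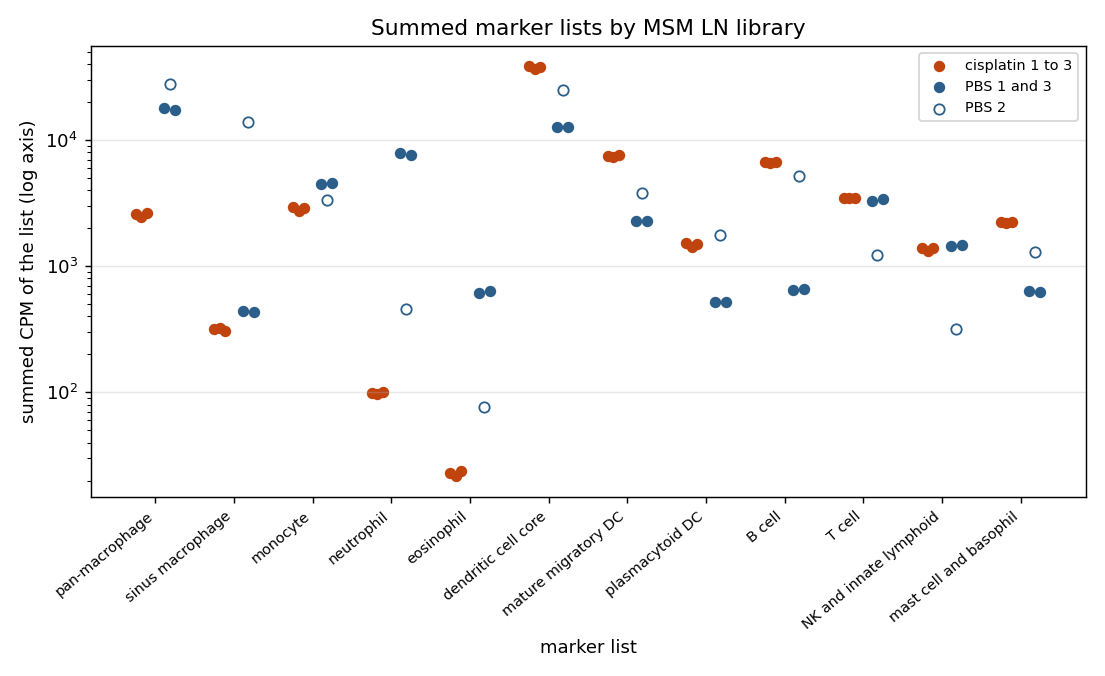
Summed CPM of each marker list (log axis) in cisplatin libraries 1 to 3 (red), PBS 1 and 3 (filled blue) and PBS 2 (open blue). The cisplatin libraries lie below all PBS libraries in the macrophage, monocyte and granulocyte lists and above all of them in the dendritic cell core, mature migratory, B cell and mast cell lists. The dendritic cell core list includes the MHC class II genes Cd74, H2-Aa and H2-Ab1, and Cd74 makes up most of its sum.

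Genes of mature migratory dendritic cells, which reach the node along the chemokine gradient read by CCR7, were higher. Of 24 members tested, 11 rose and 1 fell, and 8 and 1 did so at least 2-fold in both fits, and the median log2 fold change was 0.64 with all libraries and 0.85 without PBS 2. The list summed to 7518, 7383 and 7546 CPM in the cisplatin libraries, against 2260.4, 3821 and 2297 CPM in PBS 1, 2 and 3. Ccr7 (ENSMUSG00000037944, GRCm38 chromosome 11, 99144196 to 99155077, minus strand) had 3641, 3432 and 3612 CPM in the cisplatin libraries, against 224, 1256 and 209 CPM in PBS 1, 2 and 3. No PBS library came near the cisplatin libraries, though PBS 2 was well above PBS 1 and 3. In log2 terms Ccr7 changed by 2.66 ± 0.59 (adjusted p = 0.00529), and by 4.05 without PBS 2 (adjusted p = 9.16e-07). Ccl22, a chemokine gene of activated dendritic cells, had 307, 296 and 315 CPM, against 4.71, 40.2 and 6.52 CPM. Ccl22 differed by 4.15 ± 0.97 on the log2 scale (adjusted p = 0.00665), and by 5.77 without PBS 2 (adjusted p = 0.00113). Ccl17, which signals through the same receptor, had 35.4, 34.5 and 37.4 CPM, against 0.372, 1.74 and 0.261 CPM. For Ccl17 the log2 fold change was 5.44 ± 0.82 (adjusted p = 0.00124), and 6.75 without PBS 2 (adjusted p = 0.000546). Both were lowest in PBS 1 and 3. The actin bundling gene Fscn1 (2.76 ± 0.57, 3.35 without PBS 2, adjusted p = 0.00362 with all libraries) and Nudt17, a hydrolase gene, (3.09 ± 0.51, adjusted p = 0.00108) rose, as did Relb, an NF-kB subunit gene that was less than 2-fold higher (0.64 ± 0.10, adjusted p = 0.000772). Il15, a cytokine gene on this list, fell (-1.48 ± 0.20, adjusted p = 0.000264). Apol7c, an apolipoprotein L gene of dendritic cells, had 261, 238 and 261 CPM, against 4.34, 43.3 and 3.13 CPM and none of the PBS libraries close. In log2 terms Apol7c changed by 3.90 ± 1.09 (adjusted p = 0.0156), and by 6.08 without PBS 2 (adjusted p = 0.00143). Without PBS 1 its adjusted p was 0.05002.

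Dendritic cell core genes were higher too. This list includes Cd74, H2-Aa, H2-Ab1 and the class II transactivator gene Ciita, so it is not separate from the MHC class II genes given below. Of 12 members tested, 5 rose and 0 fell, and 4 and 0 did so at least 2-fold in both fits. For 10 of them all 3 cisplatin libraries lay above all 3 PBS libraries, a pattern that 28.6% of all genes tested shared (32.0% had it the other way). Flt3, the growth factor receptor gene of dendritic cells, had 94.7, 89.7 and 90.5 CPM, against 14.3, 11.2 and 9.39 CPM, with no PBS library near the cisplatin libraries. Flt3 differed by 2.98 ± 0.32 on the log2 scale (adjusted p = 7.4e-05), and by 2.96 without PBS 2 (adjusted p = 0.000277). Zbtb46, a transcription factor gene of conventional dendritic cells, had 104, 91.3 and 100.6 CPM, against 27.6, 31.3 and 29.7 CPM, and PBS 2 was close to PBS 1 and 3. For Zbtb46 the log2 fold change was 1.74 ± 0.27 (adjusted p = 0.000732), and 1.79 without PBS 2 (adjusted p = 0.00161). Cd83, a gene of mature antigen presenting cells, had 2140.2, 2196 and 2218 CPM, against 382, 1348 and 386 CPM, with PBS 2 between the others. In log2 terms Cd83 changed by 1.63 ± 0.45 (adjusted p = 0.0153), and by 2.51 without PBS 2 (adjusted p = 9.48e-05). Its call was lost with the 6 LN MSM libraries alone and without PBS 1 or PBS 3 (adjusted p = 0.0512, 0.0513 and 0.0529). Kit, the stem cell factor receptor gene, also rose (1.47 ± 0.41, adjusted p = 0.015), whereas the integrin gene Itgax had 12.7, 12.8 and 9.73 CPM, against 58.7, 2.28 and 52.3 CPM, and was not called with all libraries (adjusted p = 0.145) but lower without PBS 2 (-2.23, adjusted p = 0.00767).

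MHC class II genes had high levels in every library, and none of the 12 tested was called with all libraries, although 3 were without PBS 2. Their sum was 41960.4, 40154 and 41734 CPM in the cisplatin libraries, against 14849, 27954 and 14748 CPM in PBS 1, 2 and 3. The invariant chain gene Cd74 had 21555, 20484 and 21498 CPM, against 7036, 14452 and 6986 CPM, so the groups did not overlap while the adjusted p was 0.14, and 0.0752 without PBS 2. It was called in the fits without TDLN cisplatin 1, with the 6 LN MSM libraries alone (1.09, adjusted p = 0.0309), with the 10 libraries left without PBS 2 and TDLN cisplatin 1 (1.60, adjusted p = 1.39e-16) and with the 5 LN MSM libraries alone without PBS 2 (1.60, adjusted p = 4.77e-14). With those 10 libraries 11 rose and 1 fell of the 12 class II genes, beside 6128 higher and 7474 lower of 18374 genes tested. On the per-length scale, as the whole-number TPM score that the authors deposited, Cd74 was the most abundant named gene of the cisplatin libraries at 27659, 26924 and 27455, against 8623, 16806 and 8712 in PBS 1, 2 and 3. Lyz2 led in PBS 1 and 3, with 1794, 1757 and 1796 in the cisplatin libraries, against 13314, 10452 and 13076 in PBS 1, 2 and 3 on the same scale. Of MHC class I genes 1 of 14 rose and 0 fell (0 and 0 at least 2-fold in both fits), with sums of 17564, 17301 and 17373 CPM in the cisplatin libraries, against 18953, 15024 and 19106 CPM in PBS 1, 2 and 3. H2-M2, a class I-like gene that lies outside that list, had 168, 164 and 171 CPM, against 0.124, 18.2 and 0.1305 CPM, near absent from PBS 1 and 3. H2-M2 differed by 4.74 ± 1.34 on the log2 scale (adjusted p = 0.0166), and its adjusted p was 0.000323 without PBS 2, where PBS 1 and 3 held 2 counts.

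Genes of dendritic cell subsets were called in both directions. The counts below stand beside 16.6% called higher and 26.8% lower over all genes tested. At least 2-fold in both fits the shares were 10.1% and 19.4%, and no subset list was tested as a set. Of type 1 conventional dendritic cell genes 1 of 10 rose and 2 fell (0 and 2 at least 2-fold in both fits), and Cadm1 was the one that rose. The chemokine receptor gene Xcr1 had 0 CPM in each library, against 26.02, 4.35 and 22.96 CPM (at least 44.96-fold lower, adjusted p = 0.000241), and Tlr3, a receptor gene for double-stranded RNA, 0 CPM in each library, against 7.56, 6.09 and 7.697 CPM (at least 17.99-fold lower, adjusted p = 3.07e-05). The lectin gene Clec9a was at 5.99, 5.73 and 5.86 CPM, against 1.49, 0 and 2.35 CPM, with no call in the 12 libraries and a call in the 10 (1.61, adjusted p = 0.000244). Of type 2 genes 0 of 8 rose and 3 fell (0 and 3 at least 2-fold in both fits), and the lectin genes Mgl2 (at least 29.7-fold lower, adjusted p = 1.59e-05) and Clec4a1 (-2.94 ± 0.26, adjusted p = 2.32e-05) and the phagocytosis checkpoint gene Sirpa (-1.72 ± 0.38, adjusted p = 0.00538) were the ones that fell. Of plasmacytoid dendritic cell genes 2 of 12 rose and 1 fell (2 and 1 at least 2-fold in both fits), with sums of 1516, 1421 and 1502 CPM in the cisplatin libraries, against 522, 1769.8 and 521 CPM in PBS 1, 2 and 3. The list thus lay above PBS 1 and 3 and below PBS 2. Runx2 was the member of it that fell. Pacsin1 (2.65 ± 0.51, 3.76 without PBS 2, adjusted p = 0.00236 with all libraries) and the kallikrein gene Klk1 (4.496 ± 0.91, 78.6-fold, 95% interval 26.7 to 383, without PBS 2, adjusted p = 0.00494 with all libraries) rose.

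B cell genes were high in the cisplatin libraries and in PBS 2. Their list summed to 6714, 6511 and 6706 CPM in the cisplatin libraries, against 646, 5174 and 657 CPM in PBS 1, 2 and 3. None of the 14 members was called with all libraries, while 13 rose and 1 fell without PBS 2, and with the 10 libraries 13 rose and 1 fell. Over all genes 21.4% were called higher and 29.3% lower without PBS 2. With the 10 libraries 6128 of 18374 genes were called higher and 7474 lower. Cd79a, a signalling subunit of the B cell receptor, had 1454, 1374 and 1412 CPM, against 62.7, 1057 and 66.4 CPM and was called without PBS 2 but not with all libraries (adjusted p = 0.23 with it and 0.0102 without, log2 fold change 4.46 without). Of plasma cell genes 1 of 9 rose and 3 fell (0 and 1 at least 2-fold in both fits), and the secretory transcription factor gene Xbp1 was the one that rose (0.79 ± 0.09, adjusted p = 9.9e-05).

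Some T cell and NK cell genes were higher, although the sums lay near those of PBS 1 and 3. Of T cell genes 4 of 15 rose and 0 fell (4 and 0 at least 2-fold in both fits), with sums of 3496, 3477 and 3486 CPM in the cisplatin libraries, against 3275, 1227 and 3379 CPM in PBS 1, 2 and 3. Cd8a had 195, 181 and 189.9 CPM, against 49.6, 15.3 and 48.5 CPM, lowest in PBS 2. For Cd8a the log2 fold change was 2.32 ± 0.44 (adjusted p = 0.00227), and 1.95 without PBS 2 (adjusted p = 0.00127). Cd8b1, the other CD8 chain, rose (2.51 ± 0.46, adjusted p = 0.00188), as did Lef1, a transcription factor gene of naive T cells (2.93 ± 0.29, adjusted p = 4.58e-05). Of NK and innate lymphoid genes 5 of 12 rose and 1 fell (5 and 1 at least 2-fold in both fits), and the sums were 1396, 1309.8 and 1392 CPM in the cisplatin libraries, against 1442, 316 and 1477 CPM in PBS 1, 2 and 3. Gzma (ENSMUSG00000023132, GRCm38 chromosome 13, 113093825 to 113100981, minus strand), a granzyme gene, had 58.9, 59.4 and 57.4 CPM, against 0, 0.217 and 0 CPM, so that the PBS group held counts in PBS 2 only. Gzma was 729.9-fold higher by summed counts (95% interval 202 to 6033, adjusted p = 2.89e-05), and its adjusted p was 2.11e-05 without PBS 2, where PBS 1 and 3 held 0 counts. Eomes, a transcription factor gene of NK and CD8 T cells, had 39.6, 31.9 and 35.8 CPM, against 0.372, 0.326 and 0.391 CPM. Eomes differed by 6.57 ± 0.75 on the log2 scale (adjusted p = 0.000285), and by 6.501 without PBS 2 (adjusted p = 0.000546). The perforin gene Prf1 (2.71 ± 0.28, adjusted p = 6.32e-05) and the lectin receptor gene Klre1 (5.28 ± 1.09, at least 28.6-fold without PBS 2, adjusted p = 0.00535 with all libraries) rose, and Klrk1, the NKG2D gene, fell (-1.29 ± 0.32, adjusted p = 0.00945).

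The summed mast cell and basophil list was above PBS 1 and 3 by a wide margin and above PBS 2 by less, but its members moved both ways. Of the list 2 of 11 rose and 1 fell (1 and 1 at least 2-fold in both fits), and 8 rose and 3 fell without PBS 2. With all libraries Gata2 and Fcer1a were the 2 that rose, and Hdc was the 1 that fell, at least 2-fold in both fits. The sums were 2243, 2208 and 2249 CPM in the cisplatin libraries, against 632, 1305 and 622 CPM in PBS 1, 2 and 3. The carboxypeptidase gene Cpa3 had 271, 273 and 281 CPM, against 16.7, 246 and 17.7 CPM, with PBS 2 close to the cisplatin libraries. It was called without PBS 2 but not with all libraries (log2 fold change 4.001 and adjusted p = 9.72e-06 without it, adjusted p = 0.158 with it). The tryptase gene Tpsb2, which has a close paralog that could share reads, had 580.2, 556 and 557 CPM, against 0.496, 289 and 0.913 CPM. Tph1, the serotonin synthesis gene of mast cells, which lies outside this list, had 133, 133 and 131 CPM, against 0.124, 32.2 and 0 CPM. For Tph1 the log2 fold change was 3.60 ± 1.303 (adjusted p = 0.0458), and its adjusted p was 1.03e-05 without PBS 2, where PBS 1 and 3 held 1 count. Leaving out cisplatin 1, 2 or 3 or PBS 1 or 3 ended its call, with adjusted p between 0.0743 and 0.0957, as did the 6 LN MSM libraries alone (adjusted p = 0.118).

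Endothelial, stromal, erythroid, platelet and melanocyte lists had smaller sums than the dendritic cell core and B cell lists in every library. Of lymphatic endothelial genes 1 of 5 rose and 2 fell (0 and 2 at least 2-fold in both fits), with sums of 223, 232 and 221 CPM in the cisplatin libraries, against 102, 199 and 92.5 CPM in PBS 1, 2 and 3, most of it Pecam1, which leukocytes also express. The defining factor gene Prox1 was at 0 CPM in each library, against 0.372, 6.96 and 0.783 CPM. Of blood endothelial and stromal genes 0 of 9 rose and 2 fell (0 and 2 at least 2-fold in both fits), with sums of 46.2, 45.8 and 43.4 CPM in the cisplatin libraries, against 41.02, 94.6 and 32.5 CPM in PBS 1, 2 and 3. Of erythroid and platelet genes 0 of 5 rose and 1 fell (0 and 1 at least 2-fold in both fits), with sums of 92.8, 80.4 and 90.5 CPM in the cisplatin libraries, against 122.6, 32.6 and 129 CPM in PBS 1, 2 and 3. Of melanocyte genes 1 of 8 rose and 3 fell (1 and 3 at least 2-fold in both fits), with sums of 234, 222 and 226 CPM in the cisplatin libraries, against 328, 32.2 and 328 CPM in PBS 1, 2 and 3. The melanin synthesis gene Dct made up much of this, with 182, 175 and 174 CPM, against 175, 14.6 and 178 CPM, and it was low in PBS 2 alone. Sox10, a neural crest factor gene, had 9.21, 8.34 and 9.98 CPM, against 0 CPM in each library (at least 25.3-fold higher, adjusted p = 0.000107), whereas Mitf had 0 CPM in each library, against 11.2, 5.65 and 10.44 CPM (at least 22.96-fold lower, adjusted p = 5.47e-05). Under the MSM label in the TDLN, the melanocyte list summed to 22.9, 17.3 and 22.8 CPM with cisplatin and 37.6, 34.7 and 35.8 CPM with PBS.

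The remaining genes with the largest rises have varied functions. Als2cl, a guanine nucleotide exchange factor gene, had 121, 119 and 128 CPM, against 5.33, 22.4 and 4.17 CPM, and all cisplatin libraries lay above PBS 2, the highest PBS library. In log2 terms Als2cl changed by 3.52 ± 0.61 (adjusted p = 0.00242), and by 4.69 without PBS 2 (adjusted p = 1.55e-05). Bbs2, a cilium trafficking gene (3.70 ± 0.53, 4.84 without PBS 2, adjusted p = 0.000451 with all libraries), Myb, a transcription factor gene of progenitors (3.20 ± 0.61, 4.59 without PBS 2, adjusted p = 0.00226 with all libraries), and the RNA methyltransferase gene Tarbp1 (3.72 ± 0.80, adjusted p = 0.00425) rose too. So did the sulfotransferase gene Chst10 (2.57 ± 0.79, 4.39 without PBS 2, adjusted p = 0.0242 with all libraries) and the coenzyme Q gene Coq8a (2.39 ± 0.72, 4.02 without PBS 2, adjusted p = 0.0219 with all libraries). Both lost their call with the 6 LN MSM libraries alone and without cisplatin 1, 2 or 3 or PBS 1, and Coq8a also without PBS 3, with adjusted p between 0.0529 and 0.0780. Among genes at least 2-fold higher in both fits without overlap, a set without Cd74, the largest rises in mean CPM without PBS 2 were in Ccr7, Cd83, Il4ra, Gimap6, Gpr171, Gimap3, S1pr1 and Dgka. Of these the GTPase genes Gimap3 (1.92 ± 0.20, adjusted p = 6.32e-05) and Gimap6 (1.86 ± 0.64, 2.84 without PBS 2, adjusted p = 0.0384 with all libraries) are known from lymphocytes. Gpr171 is a G protein-coupled receptor gene (2.05 ± 0.54, 3.01 without PBS 2, adjusted p = 0.0119 with all libraries), S1pr1 the receptor gene for lymphocyte exit (1.87 ± 0.28, adjusted p = 0.000636) and Dgka a diacylglycerol kinase gene (1.58 ± 0.13, adjusted p = 1.9e-05). The call of Gimap6 was lost on leaving out any LN library other than PBS 2 (adjusted p = 0.0809 to 0.119).

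Genes of the IL-33 and type 2 immunity list fell more often than they rose, as 1 of 11 rose and 7 fell (1 and 6 at least 2-fold in both fits). Il33 (ENSMUSG00000024810, GRCm38 chromosome 19, 29925114 to 29960718, plus strand) was at 0 CPM in each library in the cisplatin libraries, against 0, 16.96 and 0 CPM in PBS 1, 2 and 3. It thus had counts in PBS 2 alone, was not called (adjusted p = 0.0974) and cannot be compared without that library. Il1rl1 (ENSMUSG00000026069, GRCm38 chromosome 1, 40429570 to 40465415, plus strand) had 0.585, 1.87 and 0.624 CPM, against 43.1, 10.9 and 42.3 CPM. It was lower in all cisplatin libraries, and PBS 2 lay between these and PBS 1 and 3. Il1rl1 differed by -4.93 ± 0.79 on the log2 scale (adjusted p = 0.000891), and by -5.33 without PBS 2 (adjusted p = 0.00029). ST2 is carried by mast cells, eosinophils, basophils and type 2 lymphoid cells among others. The eosinophil markers fell beside it. The summed mast cell and basophil list was higher, at 2243, 2208 and 2249 CPM, against 632, 1305 and 622 CPM in PBS 1, 2 and 3. The part of these markers in the fall of Il1rl1 was not tested. Il1rap, the shared receptor subunit, had 3.07, 4.36 and 3.24 CPM, against 19.6, 8.48 and 23.2 CPM. For Il1rap the log2 fold change was -2.26 ± 0.43 (adjusted p = 0.00243), and -2.57 without PBS 2 (adjusted p = 0.000388). Il13ra1, an IL-13 receptor chain, had 0.292, 0.623 and 0.374 CPM, against 105, 69.5 and 99.7 CPM. In log2 terms Il13ra1 changed by -7.66 ± 0.32 (adjusted p = 3.61e-07), and by -7.82 without PBS 2 (adjusted p = 4.16e-07). Both were lower in every cisplatin library than in any PBS library. Il4ra, the IL-4 receptor alpha gene, went the other way, with 1091, 1015 and 1069 CPM, against 431, 365 and 452 CPM and no overlap. Il4ra differed by 1.35 ± 0.18 on the log2 scale (adjusted p = 0.000299), and by 1.27 without PBS 2 (adjusted p = 0.000722).

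Uptake genes were largely lower. Of the scavenging and apoptotic cell uptake list 2 of 24 rose and 18 fell (1 and 14 at least 2-fold in both fits), and the median log2 fold change was -2.87 with all libraries and -2.54 without PBS 2. Lrp1, a large endocytic receptor gene, had 0.146, 0 and 0.499 CPM, against 55.5, 73.4 and 59.8 CPM, close to each other in the PBS libraries. For Lrp1 the log2 fold change was -8.08 ± 0.64 (adjusted p = 1.32e-05), and -7.94 without PBS 2 (adjusted p = 1.92e-05). The collectin gene Colec12 (-3.76 ± 0.26, adjusted p = 6.17e-06), the hyaluronan receptor gene Stab2 (-2.56 ± 0.24, adjusted p = 3.08e-05), the phosphatidylserine receptor gene Havcr1 (409-fold lower by summed counts, 95% interval 73.1 to 16207, adjusted p = 5.45e-05) and the integrin gene Itgb5 (-2.35 ± 0.303, adjusted p = 0.000228) fell. Mfge8, the bridge between apoptotic cells and integrins, was among the 2 that rose, with 177, 173 and 184 CPM, against 58.99, 70.7 and 52.1 CPM. In log2 terms Mfge8 changed by 1.56 ± 0.22 (adjusted p = 0.000386), and by 1.69 without PBS 2 (adjusted p = 0.000463). The lower pan-macrophage sum moved with this list, and its part in it was not tested. Of 6 Fc receptor genes 0 rose and 4 fell (0 and 4 at least 2-fold in both fits), with the signalling chain gene Fcer1g (-1.27 ± 0.13, adjusted p = 6.7e-05) and Fcgr3 (-2.33 ± 0.36, adjusted p = 0.000677) among them. Of complement genes 0 of 14 rose and 9 fell (0 and 8 at least 2-fold in both fits), with Cfb (-1.68 ± 0.18, adjusted p = 7.68e-05), C3 (-1.22 ± 0.11, adjusted p = 2.76e-05) and the anaphylatoxin receptor gene C3ar1 (-3.90 ± 0.79, adjusted p = 0.00334) examples. Of iron and heme genes 0 of 14 rose and 7 fell (0 and 3 at least 2-fold in both fits), and of lysosome genes 1 of 26 rose and 12 fell (0 and 6 at least 2-fold in both fits). The lysosomal hydrolase gene Ctsd (-1.67 ± 0.14, adjusted p = 1.9e-05) and the tetraspanin gene Cd63 (-1.87 ± 0.22, adjusted p = 0.000136) were among those that fell.

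Lipid genes changed in both directions. Of the cholesterol and lipid handling list 5 of 20 rose and 12 fell (3 and 6 at least 2-fold in both fits). Srebf2, the transcription factor gene of sterol synthesis, had 402, 379 and 377 CPM, against 139, 171 and 132 CPM with no overlap. Srebf2 differed by 1.39 ± 0.13 on the log2 scale (adjusted p = 3.85e-05), and by 1.52 without PBS 2 (adjusted p = 2.01e-05). The synthesis gene Cyp51 (1.31 ± 0.16, adjusted p = 0.000162) and the fatty acid binding gene Fabp5 (1.55 ± 0.14, adjusted p = 2.16e-05) rose, while Hmgcs1, which also belongs to sterol synthesis (-1.73 ± 0.22, adjusted p = 0.000217), and the efflux transporter gene Abcg1 (-2.11 ± 0.27, adjusted p = 0.00022) fell.

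Pattern recognition and IL-1 genes were mostly lower. Of Toll-like receptors and adaptors 2 of 17 rose and 10 fell (2 and 9 at least 2-fold in both fits). Tlr13, a receptor gene for bacterial ribosomal RNA, had 0.292, 0.125 and 0 CPM, against 79.1, 49.4 and 72.01 CPM, and was near absent with cisplatin. Tlr13 was 503-fold lower by summed counts (95% interval 172 to 2442, adjusted p = 1.69e-05), and 577-fold with adjusted p = 2.3e-05 without PBS 2. Ticam1, the adaptor of TLR3 and TLR4, had no count with cisplatin, against 17.3, 18.9 and 17.5 CPM in PBS 1, 2 and 3 (at least 45.3-fold lower, adjusted p = 4.45e-05), and Tlr6 fell too (at least 39.6-fold lower, adjusted p = 7.38e-05). The profilin receptor gene Tlr12 (1.21 ± 0.26, adjusted p = 0.00415) and the adaptor gene Tirap (1.24 ± 0.28, adjusted p = 0.00544) rose. Of the IL-1 family and inflammasome list 0 of 16 rose and 9 fell (0 and 8 at least 2-fold in both fits), and Il1a had 27.8, 27.4 and 31.4 CPM, against 142, 134 and 131 CPM, nearly equal in the PBS libraries. In log2 terms Il1a changed by -2.23 ± 0.19 (adjusted p = 1.9e-05), and by -2.24 without PBS 2 (adjusted p = 4.11e-05). Of inflammatory cytokines 2 of 18 rose and 8 fell (1 and 7 at least 2-fold in both fits), with Lif at 0 counts in all cisplatin libraries (at least 9.33-fold lower, adjusted p = 9.43e-05). Of macrophage niche genes, which cover growth factor and lymphotoxin receptors, 1 of 12 rose and 6 fell (1 and 6 at least 2-fold in both fits), among them the GM-CSF receptor chains Csf2ra (-2.35 ± 0.28, adjusted p = 0.000139) and Csf2rb (-2.12 ± 0.45, adjusted p = 0.00406), and the lymphotoxin beta receptor gene Ltbr (-1.996 ± 0.34, adjusted p = 0.00115).

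Chemokine genes were called about as often as all genes tested. Of 21 members tested, 3 rose and 5 fell, and 3 and 5 did so at least 2-fold in both fits, beside 16.6% called higher and 26.8% lower over all genes tested. Beside Ccl17 and Ccl22, Ccl5 rose (2.24 ± 0.55, 2.95 without PBS 2, adjusted p = 0.00838 with all libraries). Ccl6, a chemokine gene of myeloid cells, had 19.4, 30.6 and 23.7 CPM, against 1179.8, 138 and 1357 CPM, lower in PBS 2 than in PBS 1 and 3. Ccl6 differed by -5.18 ± 0.93 on the log2 scale (adjusted p = 0.00162), and by -5.68 without PBS 2 (adjusted p = 0.000209). Ccl9 (-3.998 ± 0.87, adjusted p = 0.00468) and the interferon-induced Cxcl10 (-2.70 ± 0.63, adjusted p = 0.00674) fell. Of chemokine receptors 3 of 18 rose and 7 fell (2 and 6 at least 2-fold in both fits). Of costimulatory and checkpoint genes 5 of 19 rose and 4 fell (4 and 4 at least 2-fold in both fits), with the GITR ligand gene Tnfsf18 (59.9-fold higher by summed counts, 95% interval 20.1 to 294, at least 18.9-fold without PBS 2, adjusted p = 0.00313 with all libraries) higher and the B7-H3 gene Cd276 (at least 12.2-fold, adjusted p = 0.000834) and the TIM-3 gene Havcr2 (-1.17 ± 0.301, adjusted p = 0.0108) lower. Of migration, cytoskeleton and adhesion genes 2 of 22 rose and 8 fell (1 and 6 at least 2-fold in both fits). Of myeloid transcription factor genes 3 of 26 rose and 12 fell (1 and 9 at least 2-fold in both fits), and Spi1, which encodes PU.1, had 163, 140.3 and 149 CPM, against 455, 562 and 470.05 CPM. For Spi1 the log2 fold change was -1.72 ± 0.19 (adjusted p = 9.04e-05), and -1.61 without PBS 2 (adjusted p = 0.000214).

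The genes that cisplatin is known to engage did not move as a block. Of p53 targets 3 of 25 rose and 9 fell (0 and 8 at least 2-fold in both fits), with a median log2 fold change of -0.25 with all libraries and -0.503 without PBS 2. These counts stand beside 16.6% called higher and 26.8% lower over all genes tested (10.1% and 19.4% at least 2-fold in both fits). The list was not tested as a set. Trp53 itself had 256, 232 and 239 CPM, against 152, 126 and 153 CPM, so it was higher in all cisplatin libraries by less than 2-fold. In log2 terms Trp53 changed by 0.75 ± 0.14 (adjusted p = 0.0017), and by 0.67 without PBS 2 (adjusted p = 0.00272). Mdm2, the p53 ubiquitin ligase and target, rose by a small amount (0.51 ± 0.12, adjusted p = 0.00765). Phlda3, a p53 target that restrains AKT, had no count with cisplatin, against 7.68, 8.81 and 7.44 CPM in PBS 1, 2 and 3 (at least 20.2-fold lower, adjusted p = 9.77e-06). The death gene Pmaip1, which encodes NOXA, had 53.3, 62.5 and 52.7 CPM, against 289.7, 163 and 352 CPM. Pmaip1 differed by -2.26 ± 0.38 on the log2 scale (adjusted p = 0.00112), and by -2.51 without PBS 2 (adjusted p = 0.000416). Pidd1 (209-fold lower by summed counts, 95% interval 57.5 to 1729.7, adjusted p = 4.54e-05), Perp (116-fold lower by summed counts, 95% interval 20.4 to 4604, adjusted p = 0.00147) and Ddit4 (-2.43 ± 0.37, adjusted p = 0.000651) fell. The cell cycle inhibitor gene Cdkn1a, named after its values were seen, had 148, 144 and 154 CPM, against 579, 189 and 623 CPM, with PBS 2 close to the cisplatin libraries. For Cdkn1a the log2 fold change was -1.64 ± 0.58 (adjusted p = 0.0418), and -2.01 without PBS 2 (adjusted p = 0.012). Its call was lost on leaving out any LN library other than PBS 2 (adjusted p = 0.102 to 0.12). Apoptosis machinery genes were called near the share of all genes tested, as 3 of 22 rose and 5 fell (0 and 1 at least 2-fold in both fits). Bad was lower (-1.77 ± 0.20, adjusted p = 0.000108) and Bcl2 higher (0.91 ± 0.23, adjusted p = 0.01).

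Repair genes moved both ways, and of damage signalling genes more rose than fell. Of interstrand crosslink and excision repair genes 12 of 30 rose and 8 fell (8 and 8 at least 2-fold in both fits). Over all genes tested 16.6% were called higher and 26.8% lower (10.1% and 19.4% at least 2-fold in both fits). The called falls of this list were thus near the share of all genes, and the rises above it. Fanca, a core subunit of the Fanconi anaemia ligase, had 1.61, 1.49 and 1.75 CPM, against 42.8, 21.96 and 46.2 CPM. In log2 terms Fanca changed by -4.502 ± 0.301 (adjusted p = 5.62e-06), and by -4.76 without PBS 2 (adjusted p = 4.16e-07). The core gene Fancc (-5.65 ± 0.58, adjusted p = 5.18e-05) and the recombination mediator gene Brca2 (-3.61 ± 0.46, adjusted p = 0.000204) fell. Ercc2, a helicase gene of excision repair, rose (1.80 ± 0.23, adjusted p = 0.00023), while the lesion sensor gene Xpc fell (-1.43 ± 0.23, adjusted p = 0.000839). Of DNA damage signalling genes 9 of 18 rose and 1 fell (7 and 0 at least 2-fold in both fits), with a median log2 fold change of 0.97 with all libraries and 1.13 without PBS 2. Atr, the kinase gene of stalled replication, had 55.1, 63.01 and 51.4 CPM, against 4.71, 15.8 and 6.13 CPM. Atr differed by 2.66 ± 0.43 on the log2 scale (adjusted p = 0.000942), and by 3.39 without PBS 2 (adjusted p = 4.97e-05). Mre11a (1.22 ± 0.16, adjusted p = 0.000266), the mediator gene Mdc1 (1.83 ± 0.26, adjusted p = 0.000402) and the histone gene H2afx (1.51 ± 0.23, adjusted p = 0.000577) rose as well. The summed B cell list, given above, was likewise highest in the cisplatin libraries, and its part in these rises was not tested.

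**Figure D4:**
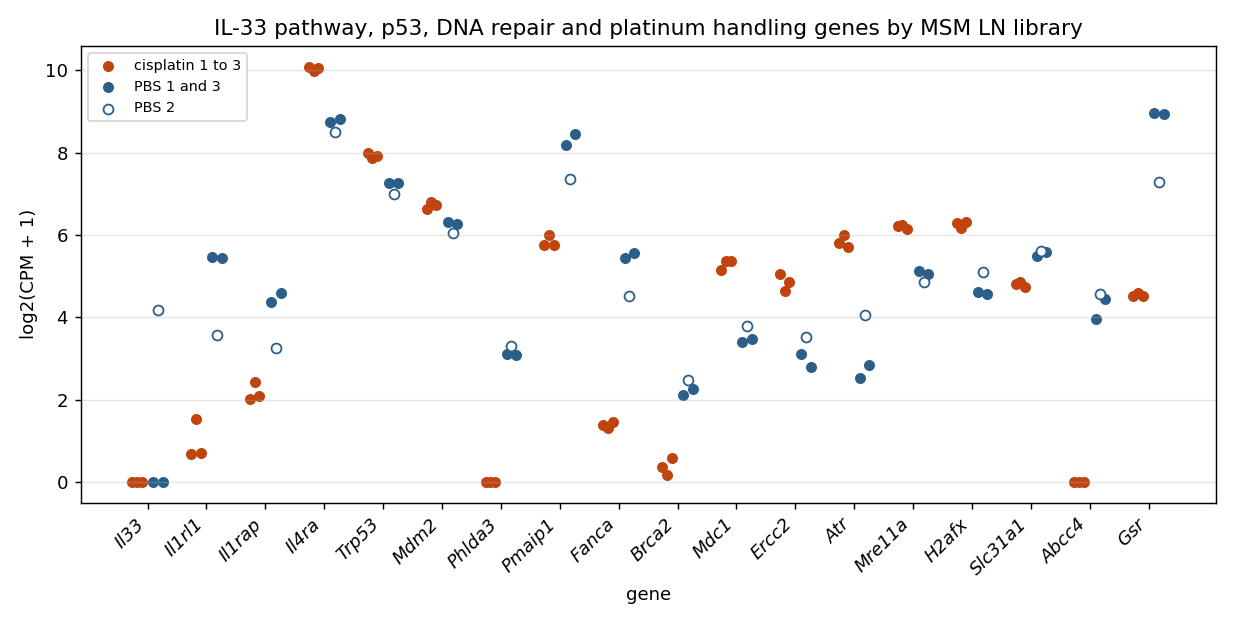
Level of single genes as log2(CPM + 1) in cisplatin libraries 1 to 3 (red), PBS 1 and 3 (filled blue) and PBS 2 (open blue). Il1rl1, Fanca and Gsr lie below all PBS libraries with cisplatin, Atr, Mre11a and Mdc1 above all of them, and Il33 has counts in PBS 2 alone.

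Of the platinum transport and thiol genes none rose. In that list 0 of 19 rose and 11 fell (0 and 5 at least 2-fold in both fits). The glutathione reductase gene Gsr had 21.8, 23.2 and 21.8 CPM, against 497, 155 and 494 CPM. For Gsr the log2 fold change was -4.10 ± 0.59 (adjusted p = 0.000465), and -4.47 without PBS 2 (adjusted p = 0.00013). The efflux transporter gene Abcc4 had no count with cisplatin, against 14.6, 22.7 and 20.6 CPM in PBS 1, 2 and 3 (at least 48.9-fold lower, adjusted p = 9.4e-06). The copper transporter gene Slc31a2 (-1.39 ± 0.23, adjusted p = 0.00105) and the glutathione transferase gene Gstp1 (-0.65 ± 0.11, adjusted p = 0.00142) fell. Slc31a1, the main copper and platinum importer gene, was named after its values were seen and had 27.04, 28.1 and 25.5 CPM, against 44.1, 47.9 and 47.4 CPM, less than 2-fold lower (-0.79 ± 0.24, adjusted p = 0.0228). That call was lost without cisplatin 1, 2 or 3 or PBS 3 (adjusted p = 0.0575 to 0.0806). Of NRF2 oxidative stress genes 0 of 17 rose and 12 fell (0 and 5 at least 2-fold in both fits), with Gpx1 an example (-1.11 ± 0.18, adjusted p = 0.00101).

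Cell cycle genes were also called near the share of all genes tested, as 6 of 30 rose and 6 fell (2 and 5 at least 2-fold in both fits). That share was 16.6% higher and 26.8% lower, and it stands beside each list of this paragraph. The licensing gene Mcm2 had 196, 200.2 and 205 CPM, against 76.3, 102 and 73.3 CPM. In log2 terms Mcm2 changed by 1.26 ± 0.20 (adjusted p = 0.000778), and by 1.43 without PBS 2 (adjusted p = 0.000491). E2f1 (-2.74 ± 0.31, adjusted p = 9.65e-05) and the mitotic kinase gene Plk1 (-4.86 ± 0.80, adjusted p = 0.00102) fell. Of type I interferon response genes 2 of 32 rose and 13 fell (1 and 9 at least 2-fold in both fits), among them Slfn5 (-2.15 ± 0.21, adjusted p = 3.92e-05) and the oligoadenylate synthetase gene Oas3 (-2.46 ± 0.40, adjusted p = 0.000941). Of heat shock genes 7 of 13 rose and 1 fell (2 and 0 at least 2-fold in both fits). The chaperone gene Hsph1 had 388, 377 and 401 CPM, against 99.4, 102 and 91.5 CPM, and was higher in all cisplatin libraries. Hsph1 differed by 1.99 ± 0.22 on the log2 scale (adjusted p = 7.68e-05), and by 2.03 without PBS 2 (adjusted p = 0.000246). Hsf1, the transcription factor gene of this response, also rose (1.15 ± 0.11, adjusted p = 3.38e-05). Of NF-kB pathway genes 3 of 23 rose and 5 fell (1 and 1 at least 2-fold in both fits), with Rel higher (1.16 ± 0.12, adjusted p = 6.49e-05) and the inhibitor gene Bcl3 lower (-1.32 ± 0.12, adjusted p = 2.4e-05). Of immediate early genes 3 of 22 rose and 9 fell (1 and 9 at least 2-fold in both fits), with Egr1 (-1.86 ± 0.37, adjusted p = 0.0028) and Atf3 (-1.92 ± 0.31, adjusted p = 0.000876) lower and Klf2, a quiescence factor gene of lymphocytes, higher (1.21 ± 0.27, adjusted p = 0.00494). Of unfolded protein and integrated stress genes 3 of 19 rose and 3 fell (1 and 2 at least 2-fold in both fits). Of glycolysis and hypoxia genes 1 of 22 rose and 7 fell (0 and 4 at least 2-fold in both fits), with the mitophagy gene Bnip3 at 0.438, 0.623 and 0.873 CPM, against 53.3, 63.4 and 51.3 CPM (log2 fold change -6.39 ± 0.46, adjusted p = 7.74e-06). Of 20 ribosomal protein genes 14 rose and 0 fell (0 and 0 at least 2-fold in both fits), and Rpl4 was an example (0.73 ± 0.10, adjusted p = 0.000339), while of mitochondrial genome genes 0 of 12 rose and 0 fell (0 and 0 at least 2-fold in both fits).

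**Figure D5:**
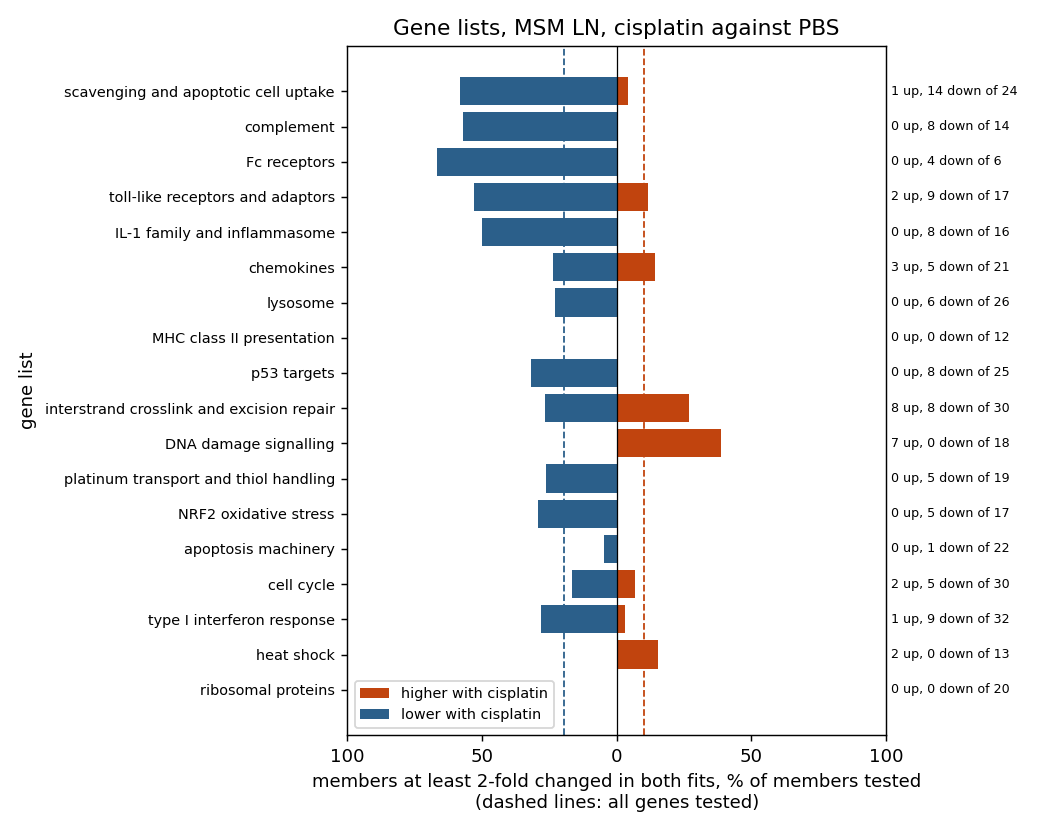
Share of the tested members of 18 lists of functions and responses (cell type marker lists are not plotted) that were at least 2-fold higher (red, right) or lower (blue, left) with cisplatin in both fits, with counts at the right edge and dashed lines at the shares over all genes tested (10.1% higher and 19.4% lower). Of the 18 plotted, the Fc receptor, uptake, complement and Toll-like receptor lists reach furthest left (4 of 6, 14 of 24, 8 of 14 and 9 of 17 members) and DNA damage signalling furthest right (7 of 18).

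The cisplatin effect under the MSM label was then compared between nodes. In the 12 MSM libraries the LN effect differed from the TDLN effect for 6928 of 17002 genes, being higher in the LN for 9.64% and lower for 31.1%. Without PBS 2 and TDLN cisplatin 1 it differed for 11954 genes. Adgre1 in the TDLN had 168, 526 and 505 CPM with cisplatin, against 313, 295 and 295 CPM with PBS, so that the loss in the LN was not shared there (log2 difference of the effects, LN minus TDLN, -7.27 ± 0.69, adjusted p = 3.14e-05). Il1rl1 in the TDLN had 13.4, 73.1 and 60.6 CPM, against 11.9, 11.5 and 12.4 CPM, the opposite direction (log2 difference -6.96 ± 1.03, adjusted p = 0.000445). Ccr7 had 1484, 1069.99 and 1105 CPM, against 59.7, 55.5 and 60.6 CPM there, and its effect was not shown to differ between the nodes (log2 difference -1.72 ± 0.80, adjusted p = 0.111). TDLN cisplatin 1, which stood apart as given above, differed from TDLN cisplatin 2 and 3 in Adgre1 and Il1rl1. Lyz2 had 9565, 7325 and 7097 CPM, against 21392, 21178 and 21304 CPM, lower in both nodes and more so in the LN (log2 difference -1.45 ± 0.20, adjusted p = 0.000302). Without PBS 2 and TDLN cisplatin 1 the log2 differences were -7.97 (adjusted p = 1.44e-20) for Adgre1, -7.81 (adjusted p = 1.35e-14) for Il1rl1, -0.17 (adjusted p = 0.0584) for Ccr7 and -1.37 (adjusted p = 2.73e-14) for Lyz2.

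Within the LN the effect under the MSM label was compared with that under the SSM label over 24 libraries. It differed for 6424 of 19671 genes, being higher in MSM for 12.8% and lower for 19.8%. Scaled over these libraries, Adgre1 in SSM had 401, 371 and 388 CPM with cisplatin, against 194, 522 and 205 CPM with PBS, where SSM LN PBS 2 was the highest (log2 difference of the effects, MSM minus SSM, -7.19 ± 0.75, adjusted p = 7.04e-07). Ccr7 in SSM had 431, 444 and 429.6 CPM, against 1234, 211 and 1178 CPM, without the high level of the MSM cisplatin libraries (log2 difference 3.67 ± 0.80, adjusted p = 0.00171). Il1rl1 in SSM had 12.5, 11.6 and 12.2 CPM, against 10.04, 43.5 and 11.8 CPM (log2 difference -4.08 ± 1.05, adjusted p = 0.00618), and Lyz2 19008, 18468 and 18929 CPM, against 9311, 11004 and 9287 CPM (log2 difference -3.79 ± 0.18, adjusted p = 3.29e-11). Without replicate 2 of both PBS groups the log2 differences were -8.18 (adjusted p = 9.04e-08) for Adgre1, 5.50 (adjusted p = 1.34e-11) for Ccr7, -5.50 (adjusted p = 0.000236) for Il1rl1 and -3.96 (adjusted p = 1.69e-10) for Lyz2. Replicate 2 of either PBS group carried the levels of the other label in each of these genes.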

How the data were processed

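Of the 48 libraries, the 12 labelled MSM entered the main model and the 24 macrophage libraries the comparison with SSM. Reads were quantified with STAR and RSEM 1.3.0 against GRCm38 and compared with DESeq2 1.38.3, per the submitters' processing notes, and the deposited expected counts per gene are the authors' estimates, rounded to whole numbers here. The TPM table that the authors deposited holds whole numbers, is treated as a score and serves only for the levels of Cd74 and Lyz2. Gene names came from GENCODE vM21.

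Genes passing filterByExpr were scaled by TMM and tested in 1 model of 4 MSM groups by the quasi-likelihood test of edgeR 4.0.16 (limma 3.58.1, R 4.3.3), and every adjusted p comes from it. A gene was called at an adjusted p under 0.05. CPM are on the TMM scale of the 12 libraries. Differences of effects were contrasts in the same model, or in a model of 8 groups over 24 libraries. The alternatives were DESeq2 1.42.0, RLE scaling, no filter, the LN MSM libraries alone, each LN library left out, PBS 2 and TDLN cisplatin 1 both left out, and the replicate number as a block. The edgeR test of cisplatin against PBS in the LN was checked on simulated data, with all 12 MSM libraries and without PBS 2. Simulated replicates of a group shared the same mean, so the check does not cover a library that stands apart as PBS 2 does. The differences of effects and the alternatives were not checked in this way.

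Members and the 52 gene lists (819 genes, 817 matched) were chosen with earlier results of these data known. Named genes were, per direction, the 12 with the largest fold change without PBS 2 (at least 50 CPM in the higher group) and the 8 with the largest difference in mean CPM, both among genes called at least 2-fold in both fits without overlap. They also include up to 5 members of each list by adjusted p with any call against its majority, markers given by value, Il33 and Il1rl1. Not every gene so named is reported here. The replicate numbers did not pair the samples, as deviations of same-numbered cisplatin and PBS libraries correlated at 0.0156, -0.0545 and -0.0481 across 7709 genes. Promoters are RefSeq's on GRCm38.p6. At 6.46 to 9.55 M counts per LN MSM library, intervals and floors cover counting error only.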

Additional observations from a re-analysis of the deposited data

Results flagged for a closer look

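Cisplatin effects under the MSM label differed between nodes, LN minus TDLN, for 6928 genes, and within the LN between the MSM and SSM labels for 6424 genes (edgeR's interaction contrasts, adjusted p under 0.05). Between nodes 9.64% of genes were called higher and 31.1% lower in the LN. Between labels 12.8% were called higher and 19.8% lower in MSM. A called difference was thus common, and the 4 genes below are a selection that was not ranked among all genes. For Adgre1 the log2 difference was -7.27 ± 0.69 between nodes (adjusted p = 3.14e-05) and -7.19 ± 0.75 between MSM and SSM (adjusted p = 7.04e-07). For Il1rl1 it was -6.96 ± 1.03 between nodes (adjusted p = 0.000445) and -4.08 ± 1.05 between MSM and SSM (adjusted p = 0.00618). Lyz2 differed by -1.45 ± 0.20 between nodes (adjusted p = 0.000302) and by -3.79 ± 0.18 between MSM and SSM (adjusted p = 3.29e-11). The effect on Ccr7 was higher in MSM than in SSM by 3.67 ± 0.80 (adjusted p = 0.00171). With 3 libraries a group, no group was large enough for a test of outlying samples, and the Spearman values of PBS 2 in the report are a description. The part of the differing marker levels of these libraries in the differences was not tested.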

How the results depend on the processing

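The number of genes called for cisplatin against PBS in the LN was 7376, and 8487 with DESeq2, 7433 with RLE size factors, 7309 without a filter, 6725 with the 6 LN MSM libraries alone and 5548 at 2-fold or more. It ranged from 5273 to 9439 when each LN library was left out, the highest without PBS 2 and the lowest without cisplatin 3. Without PBS 2 and TDLN cisplatin 1 (10 libraries) it rose to 13602, and with the 5 LN libraries alone without PBS 2 to 12732, and the node difference grew to 11954 genes with the same 10 libraries. The cause was not tested. The log2 fold change of Cd209b, negative and not called with all libraries, was 2.3698 without PBS 2, 2.3703 with the 10 libraries and 2.3691 with the 5 (adjusted p = 0.436, 4.1e-09 and 2.33e-08), and that of Marco 0.5239 without PBS 2 and 0.5226 with the 10, while leaving out other LN libraries took them as low as -7.24 for Cd209b and -9.17 for Marco. Of 161 genes named and called, 1 lost its call without PBS 2, 4 with the block (Timd4, Cdkn1a, Gimap6 and Pecam1, adjusted p = 0.0557, 0.0707, 0.0539 and 0.0681), 4 with the 6 LN libraries alone and 7 to 9 without any other LN library, and none changed direction in these fits. DESeq2 kept 149 of the 161 calls and ended none. It gave no adjusted p for the others, among them Ccl22, Apoe and Apol7c. The replicate numbers did not pair the samples, and with the replicate block 6012 genes were called in the LN, 5958 for the node difference and 5840 between MSM and SSM. Leaving out replicate 2 of both PBS groups gave 8713 genes between MSM and SSM. Il33 gives no value without PBS 2, since it was then at 0 in both groups. Genes under about 3 counts per library cannot be told from absent at this depth.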
